A study of Mus musculus with 2 samples.

Results

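Pi16 and Dpp4 adventitial progenitors are fibroblast-like cells that lie in the outer sheath of vessels and in the connective tissue around fat lobules. Nuclei of this kind were picked from single-nucleus RNA profiles of mouse brown adipose tissue by the UMI counts of 14 genes, where a UMI is a molecular tag that counts each captured RNA molecule once. The adventitial sum of a droplet barcode was its UMIs of Pi16, Dpp4, Fbn1, Sema3c and Fndc1. The interstitial sum was its UMIs of Bmper, Smoc2, Gpm6b, Col15a1 and Ccbe1, and the endothelial sum its UMIs of Ptprb, Flt1, Cyyr1 and Cdh5. A member had under 20% mitochondrially encoded UMIs, an adventitial sum of at least 3 from at least 2 of the 5 genes, and an adventitial sum above both other sums. This held for 92 of the 6872 deposited barcodes, 67 in one library and 25 in the other. Interstitial barcodes, with an interstitial sum of at least 3 that exceeded the adventitial sum, numbered 164 and served as the closest comparison. The other 4257 barcodes under the mitochondrial limit formed the wider comparison, and 3961 of these held at least 3 UMIs of adipocyte genes and more of them than of each of the 3 sums (the adipocyte reference).

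The tissue came from C57BL/6 mice, an inbred laboratory strain, with no other allele named in the labels. In the TN library the mice lived at thermoneutrality, the ambient temperature that demands no extra heat production, and in the 1cyc library they had been through a short acute cold exposure that ended 4 days before collection. Each library is a pool of nuclei from 5 mice, sorted on the DNA stain DAPI, with no label that ties a nucleus to its mouse. Since each condition is 1 library, no test between conditions was possible: an effect of the cold exposure and one of the library cannot be told apart.

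In adipose tissue, progenitors that carry Dpp4 and Pi16 are known as an early stage of the fibroblast and preadipocyte lineage, found in the adventitia and in the reticular sheets between lobules. Interstitial preadipocytes, which lie among the fat cells, are the progenitors regarded as closer to adipocyte formation. Dpp4 is a membrane-bound dipeptidyl peptidase, Pi16 a peptidase inhibitor, Fbn1 the main protein of extracellular microfibrils, Sema3c a secreted guidance cue, and Fndc1 a protein with fibronectin type III domains.

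The promoters of the 2 genes that give these cells their name are shown for reference, since the class is named by them. Nothing in these data measured the promoters themselves. RefSeq held a window for 5 of the 5 adventitial genes on GRCm38.p6, the assembly also called mm10, and the 250 bases before the start site were searched on both strands. Capitals mark the matches. For SMAD factors the letters searched were CAGAC, and for KLF factors they were CACCC. For TEAD factors they were GGAATG, and for the TATA box they were TATAAA. No 2 matches overlap in these windows. The Pi16 window lies at chr17:29318632-29318881 on the plus strand, inside the gene span of 29317680 to 29330593 that GENCODE M21 gives. The Dpp4 window lies at chr2:62412232-62412481 on the minus strand, next to a gene span of 62330073 to 62412231.
Pi16: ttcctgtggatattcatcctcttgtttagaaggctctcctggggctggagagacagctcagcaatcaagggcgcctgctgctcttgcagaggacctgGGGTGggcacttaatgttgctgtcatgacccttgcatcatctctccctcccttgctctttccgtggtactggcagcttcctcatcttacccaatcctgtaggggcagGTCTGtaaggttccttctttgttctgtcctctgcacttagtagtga
Dpp4: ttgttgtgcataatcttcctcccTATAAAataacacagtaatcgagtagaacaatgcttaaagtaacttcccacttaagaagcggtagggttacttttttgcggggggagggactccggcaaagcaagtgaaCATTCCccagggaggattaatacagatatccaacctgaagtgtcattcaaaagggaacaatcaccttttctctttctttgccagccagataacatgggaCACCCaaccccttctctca
The Pi16 window held 1 CAGAC and 1 CACCC match, and the Dpp4 window 1 CACCC, 1 GGAATG and 1 TATAAA match. The AP-1 letters TGANTCA were in neither window. Of 32851 RefSeq windows of this length, 42.19% held CAGAC, 52.01% CACCC, 12.64% GGAATG, 12.37% TATAAA and 6.749% TGANTCA. The windows of Fbn1 and Sema3c held 3 CACCC matches each, and that of Fndc1 held 1 CACCC and 1 TATAAA match.

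The barcodes were deposited from 500 UMIs upward in TN and from 262 in 1cyc, and 2467 of 2551 TN but only 2046 of 4321 1cyc barcodes were under the mitochondrial limit. Members held a median of 1022 UMIs in TN (535 to 3949) and 1011 in 1cyc (344 to 2260). The median of the adipocyte reference was 779 and 531. Their sums came to 84517 and 25115 UMIs, of which 79533 and 24171 were not mitochondrially encoded. Levels below are counts per 1000000 non-mitochondrial UMIs (CPM), and intervals are exact at 95% and cover counting error only. The libraries shared 6 barcode sequences, none of a member. Scrublet, which scores barcodes for 2 nuclei in 1 droplet, called 13 TN and 4 1cyc barcodes, 0 of them members, and so few calls may miss droplets of this kind. One TN interstitial barcode held nearly all of the haemoglobin UMIs of that class.

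Of 112 barcodes with an adventitial sum of at least 3, 11 were left out because a single gene supplied it and 9 because the interstitial sum was as large. The endothelial sum left out 0. Among the members, 15 stood at the limit with a sum of 3, 9 had 4, 33 had 5 to 9 and 35 had 10 or more. The median sum was 7 in TN (3 to 56) and 10 in 1cyc (3 to 20). Few members carried interstitial UMIs: 70 of 92 held 0, 12 held 1 and 10 held 2 or more. Dpp4 and Pi16 were seen together in 27 members, Dpp4 without Pi16 in 28, Pi16 without Dpp4 in 8 and neither in 29. Just outside the limit lay 16 barcodes with a sum of 2 from 2 genes, 11 in TN and 5 in 1cyc. These counts follow from the rule and are a description.

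**Figure D1:**
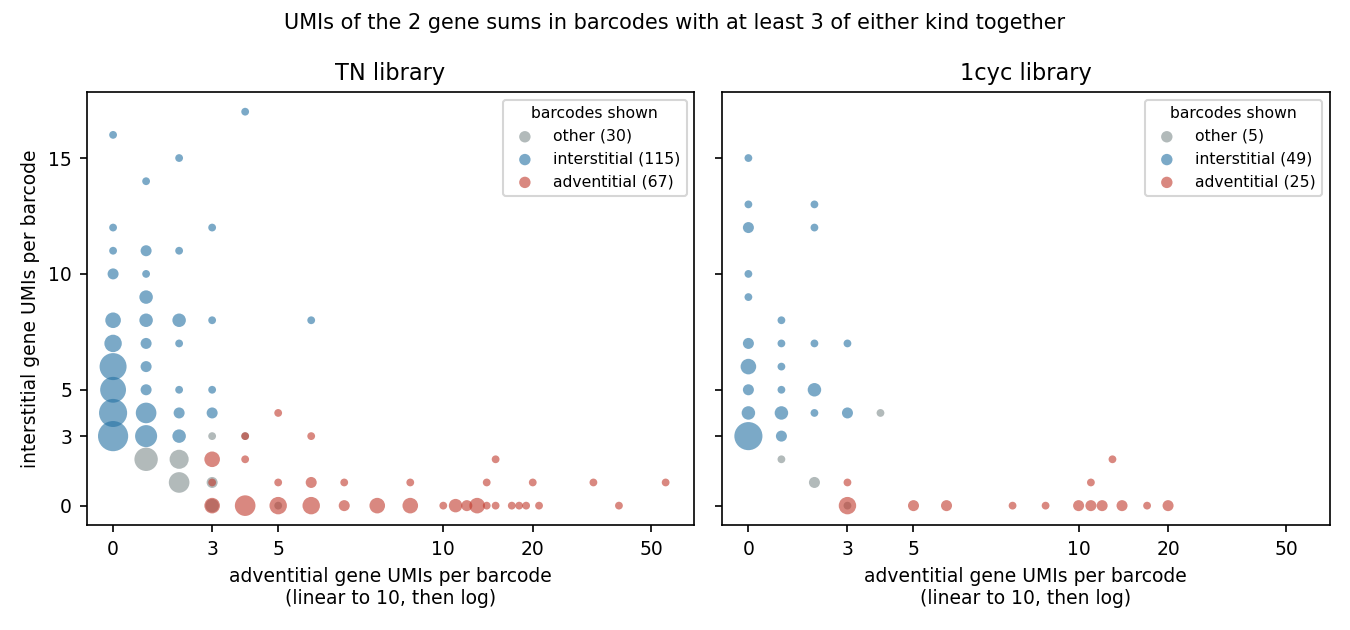
Adventitial sum (x axis, UMIs per barcode, linear to 10 and then logarithmic) against interstitial sum (y axis, UMIs per barcode) in each library; circle area grows with the number of barcodes at a position. The 67 TN and 25 1cyc members lie mostly at an interstitial sum of 0, and the 115 and 49 interstitial barcodes mostly at adventitial sums of 0 or 1.

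To ask whether the 5 genes marked the same nuclei, each was left out in turn and members were chosen by the other 4. In TN, Pi16 was then found in 38.8% of 67 members (27.1 to 51.5), in 0 of 115 interstitial barcodes (up to 3.16%) and in 0.143% of the adipocyte reference. In 1cyc it was in 36.0% of 25 members (18.0 to 57.5), in 0 of 49 interstitial barcodes (up to 7.25%) and in 0.268% of the reference. Pi16 was thus absent from the counts of every interstitial barcode in both libraries at a median depth of 1244 and 1181 UMIs.

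Dpp4 was found in 62.9% of 62 TN members (49.7 to 74.8) and 41.7% of 24 1cyc members (22.1 to 63.4) chosen without it. Its share was 2.59% and 2.04% in interstitial barcodes and 0.667% and 0.429% in the adipocyte reference. Sema3c was in 74.5% of TN and 89.5% of 1cyc members, against 6.03% and 4.08% of interstitial barcodes. Pi16, Dpp4 and Sema3c were thus rare in interstitial barcodes, while Pi16 in both libraries and Dpp4 in 1cyc had no UMI in most members.

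Fbn1 and Fndc1 were shared more widely. Fbn1 was in 67.9% of TN and 80.0% of 1cyc members chosen without it, and in 19.7% and 16% of interstitial barcodes. Fndc1 was in 76.9% and 85.7% of members and in 30.5% and 28.0% of interstitial barcodes. In the adipocyte reference neither gene passed 1.45%. The intervals of members and interstitial barcodes did not overlap for any of the 5 genes in either library. The 5 genes were set together as markers with earlier results of these data known, so this separation is a description. Each interval counts barcodes of 1 pooled library and does not measure spread between mice.

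**Figure D2:**
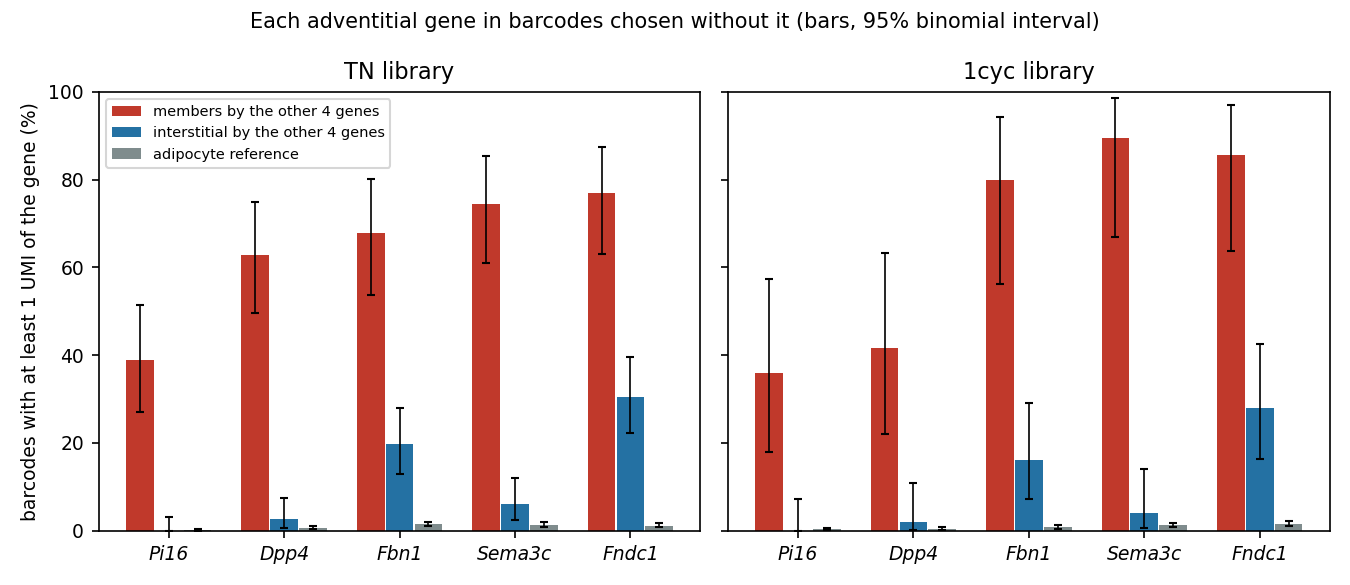
Share of barcodes (y axis, percent) with at least 1 UMI of each adventitial gene (x axis) among members and interstitial barcodes chosen by the other 4 genes, and in the adipocyte reference; lines are exact binomial 95% intervals. Pi16 is at 0% in interstitial barcodes of both libraries, and Fbn1 and Fndc1 have the tallest interstitial bars.

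Summed over all members, the 5 genes together stood at 8085 CPM in TN and 9598 in 1cyc, a ratio of 1.19 (1.02 to 1.38). Pi16 stood at 578 CPM in TN (46 UMIs) and 662 in 1cyc (16 UMIs), and Dpp4 at 1207 (96 UMIs) and 1076 (26 UMIs). Fbn1 was at 1861 and 1986 CPM, Sema3c at 2515 and 3351, and Fndc1 at 1924 and 2524. The 1cyc over TN ratio of Sema3c was 1.33 (1.02 to 1.73) and the intervals of the other 4 ratios included 1, but the rule used these counts.

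The label was then set beside genes outside the rule, which were chosen with earlier results of these data known. Their levels are thus a description. A list of 28 other genes known from Pi16 and Dpp4 cells, such as Cd55, Anxa3, Creb5 and Ackr3, reached 16182 CPM in TN members (15310 to 17091) and 17873 in 1cyc members (16227 to 19640). Interstitial barcodes had 1349 and 1305 CPM of it, and the adipocyte reference 1383 and 1345. Each of the 92 members held at least 1 UMI of this list. Opcml, a cell adhesion protein, supplied 35.0% of the list's UMIs in TN and 32.6% in 1cyc, and without it the members stood at 10524 and 12039 CPM against 1108 and 1252 in interstitial barcodes. UMIs were seen in members for 27 of the 28 genes, although Wnt2, Uchl1 and Nov had 1 UMI each, and Akr1c18 was at 0.

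Members that lacked UMIs of both name-giving genes carried the other adventitial genes as well. In TN the list stood at 12055 CPM (10501 to 13774) in the 18 members with neither Pi16 nor Dpp4 and at 17752 (16310 to 19286) in the 21 with both. In 1cyc it stood at 19599 in the 11 with neither and at 17623 in the 6 with both, so the order differed between the libraries. Members at a sum of 3 or 4 had 12742 CPM in TN and 15231 in 1cyc, and those at 10 or more had 18269 and 17276. The barcodes just outside, with a sum of 2 from 2 genes, had 7747 in TN and 19641 in 1cyc. Those with at least 3 UMIs of 1 gene alone had 1032 CPM in TN, a level near that of the interstitial class.

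Genes of cell types other than fibroblasts and progenitors ranged from 0 to 3930 CPM in members, summed by list. Mesothelial genes were at 0 UMIs for all 14 listed genes, and 13 of 16 macrophage and lymphoid genes, 11 of 14 skeletal muscle genes and 20 of 22 cell cycle genes were at 0. Macrophage and lymphoid genes summed to 25.1 CPM in TN and 41.4 in 1cyc. Adipocyte genes summed to 3131 and 3930 CPM, against 19264 and 25891 in the adipocyte reference. Most of these UMIs were from Pparg, Ppara, Esrrg and Acaca, whereas Adipoq had 1 UMI in each library, Plin1 had 3 and 1, and Ucp1 had 4 and 0. Endothelial genes summed to 528 and 827 CPM, and Tek alone gave 35 of 42 and 16 of 20 of these UMIs, with Kdr, Vwf and Tie1 at 0. Schwann and neural genes summed to 2930 and 2565 CPM, against 2283 and 2417 in interstitial barcodes and 340 and 236 in the adipocyte reference. Most of these UMIs were from Egfr (199 of 233 and 56 of 62), and 12 of the 16 genes were at 0. The part of RNA from other cell types in the results was not tested.

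Adventitial and interstitial nuclei were next compared across all genes, to show where the 2 progenitor kinds of the tissue differ. UMIs were summed for each class in each library, and edgeR's quasi-likelihood test was fitted to the 4 sums with a term for the library. The 2 libraries are the replicates, so n = 2 sums per class with 1 residual degree of freedom. In this test the spread of each gene is drawn toward that of other genes. The p-values and SEs thus do not measure how a single gene varies between these libraries alone, nor between mice. Of 3085 genes tested outside the rule, 185 were higher in members (6.00%) and 148 were lower (4.80%) at an adjusted p under 0.05 (333 in all, 10.8%). The median log2 difference over all genes was -0.05. DESeq2 called 33 of the higher genes (1.07%) and 11 of the lower (0.357%), and below a gene is said to be called by edgeR alone where DESeq2 did not call it. After each barcode was thinned to 500 UMIs, 538 genes could be tested and only Opcml, Creb5 and Sdk1 were called higher and 0 lower by edgeR.

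All 14 of the listed adventitial genes with enough UMIs to be tested were higher in members, 8 of them by both tools, with a median log2 difference of 3.96 against the -0.05 of all genes. The other 14 genes of the list had too few UMIs. Only genes read often in members could enter this count, so it is no support on its own. Opcml, an IgLON cell adhesion protein on chromosome 9 (27790775 to 28925410), had 450 UMIs in TN members and 141 in 1cyc members, against 40 and 3 in interstitial barcodes. This is 5658 and 5833 CPM against 241 and 52.9, in 60 of 67 and 25 of 25 members, and a log2 difference of 4.87 ± 0.22 (SE, edgeR adjusted p = 8.47e-99). Thinned to 500 UMIs per barcode, its edgeR adjusted p was 0.0405. This adjusted p was 6.64e-10 with at least 50 UMIs per gene and 3.52e-08 without the library term. The log2 differences there were 4.85 and 4.98, so the size of the p depends strongly on the setting. Creb5, a transcription factor of the CREB family on chromosome 6 (53287270 to 53700376), stood at 2741 and 2855 CPM in members against 163 and 106 (4.14 ± 0.25). For both genes the 2 member sums lay above the 2 interstitial sums, although some interstitial barcodes held UMIs of them.

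Limch1, an actomyosin regulator, stood at 855 and 869 CPM in members against 36.1 CPM in TN interstitial barcodes and 0 UMIs in 1cyc ones. With 3 counts in the interstitial sum as a floor in place of 0, its 1cyc level was 16.4-fold higher in members. The exact interval of its 1cyc ratio, without this floor, reached down to 12.2. Gfpt2, which starts the hexosamine pathway that feeds glycan synthesis, was at 893 and 993 CPM against 72.3 and 35.3 (log2 3.77 ± 0.39). Cd55, a complement regulator on the cell surface, had 44 and 18 UMIs in members against 1 and 4 (4.53 ± 0.55). Pcsk6, a proprotein convertase, was at 1220 and 1200 CPM against 102 and 194 (3.14 ± 0.30), and Heg1, a mucin-like membrane protein, at 1308 and 1531 against 379 and 406 (1.73 ± 0.24). Anxa3, a calcium-dependent membrane-binding protein, had 34 and 17 UMIs in members against 4 and 0. The scavenging chemokine receptor Ackr3 (28 and 5 UMIs against 1 and 1), the microfibril-associated Mfap5 and 4 others of the list were called by edgeR alone.

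**Figure D3:**
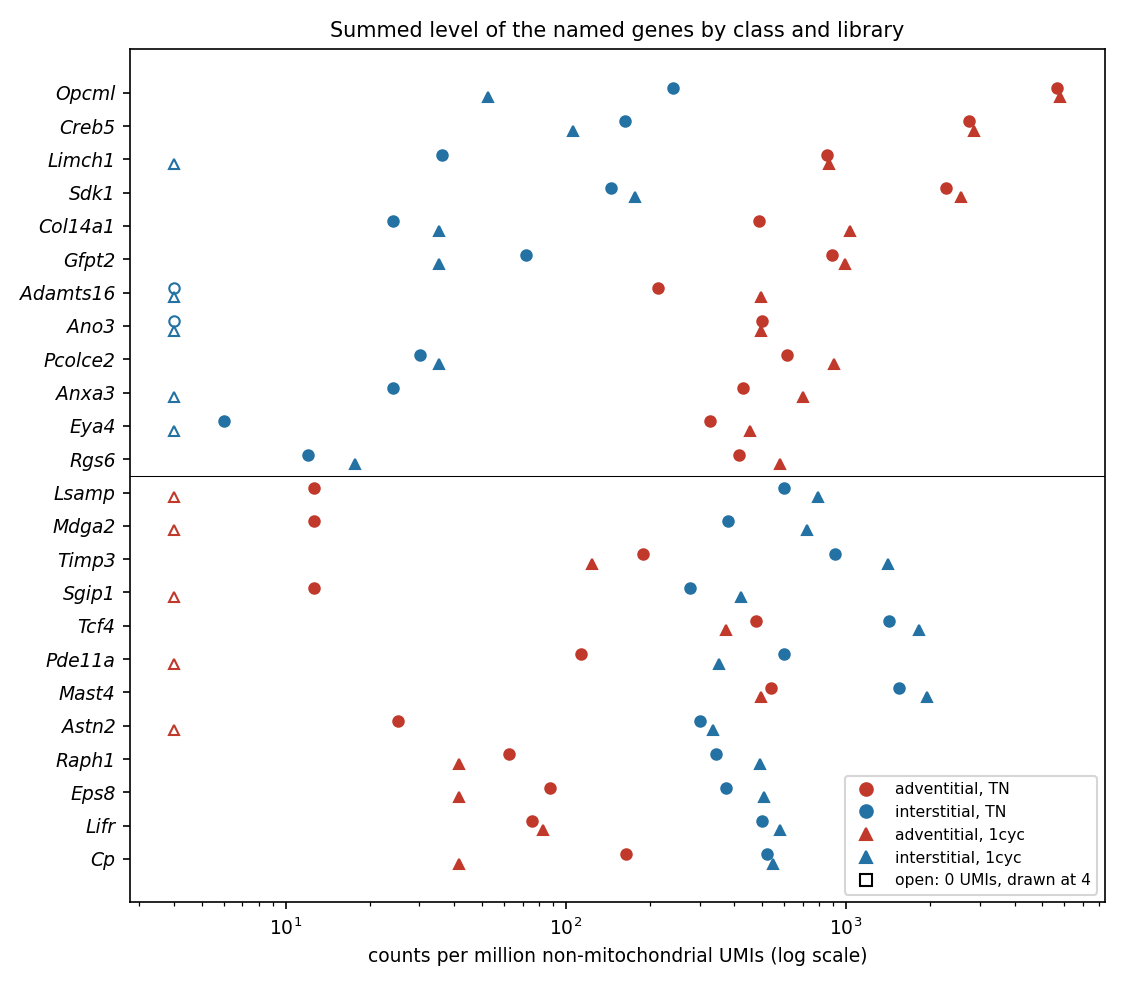
Level (x axis, CPM of non-mitochondrial UMIs, logarithmic) of the 12 most clearly higher and 12 most clearly lower genes in adventitial (red) and interstitial (blue) sums of TN (circles) and 1cyc (triangles); open symbols are sums with 0 UMIs. Genes were chosen to have the same direction in both libraries, and Opcml is at 5658 and 5833 CPM in adventitial against 241 and 52.9 in interstitial sums.

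Other genes were named by rank, a choice that required the same direction in both libraries. Sdk1, a cell adhesion protein of the immunoglobulin superfamily, stood at 2276 and 2565 CPM in members against 145 and 176 (log2 3.84 ± 0.25). Ano3, a membrane protein of the anoctamin family, had 40 UMIs in 22 TN members and 12 in 8 1cyc members, and 0 in interstitial barcodes. With a floor of 3 counts in place of 0, it was 27.8-fold higher in TN and 9.38-fold in 1cyc. The exact intervals of its ratios, without this floor, reached down to 21.6 and 6.52. Eya4, a transcriptional coactivator and phosphatase, had 26 and 11 UMIs against 1 and 0, and Rgs6, a regulator of G protein signalling, 33 and 14 against 2 and 1. Adamts16, a secreted metalloprotease, had 17 and 12 UMIs against 0 and 0, which is 11.8-fold and 9.38-fold higher with the same floor. Its exact intervals reached down to 8.61 and 6.52, but its adjusted p was 0.964 with DESeq2. Of these 12 higher genes, 11 were called by both tools.

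Of 16 tested genes of fibrillar collagens and their assembly, 4 were higher, 1 lower and 11 not called, with a median log2 difference of 0.29. Col14a1, a collagen that binds the fibril surface, stood at 490 and 1034 CPM in members against 24.1 and 35.3 (4.38 ± 0.53). Pcolce2, an enhancer of procollagen processing, stood at 616 and 910 CPM against 30.1 and 35.3 (4.31 ± 0.49). Fn1, which encodes fibronectin, had 33 and 10 UMIs against 1 and 1 (5.21 ± 0.71), and these 3 were called by both tools. Col3a1 was higher by edgeR alone (1358 and 1283 CPM against 687 and 988). The major collagens Col1a1 and Col1a2 were not called, with log2 differences of 0.73 ± 0.50 and -0.01 ± 0.27.

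Of 10 tested genes of elastic fibres and microfibrils, 4 were higher, all by edgeR alone, and 0 lower (median 1.05). These were Mfap5 (365 and 579 CPM against 42.2 and 70.6), Efemp1, Emilin2 and Ltbp1, the last a carrier of latent TGF-beta. Mfap5, Efemp1 and Emilin2 also stand on the adventitial list, so their calls are not a separate result. Eln, which encodes elastin, was not called at 9 and 5 UMIs against 8 and 6. Proteoglycan genes showed 3 of 6 higher and 0 lower. Gpc6, a cell-surface heparan sulphate carrier, was at 2490 and 2896 CPM against 651 and 829 (1.79 ± 0.20), and Ugdh, which makes a sugar precursor of hyaluronan and other glycans, had 25 and 13 UMIs against 3 and 1 (4.18 ± 0.65). Vcan, a large matrix proteoglycan, was higher by edgeR alone.

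Of 12 basement membrane genes tested, 5 were lower, all by edgeR alone, 0 higher and 7 not called, with a median of -1.14. The collagen IV chains Col4a1 and Col4a2 stood at 113 and 290 CPM and at 113 CPM and 0 UMIs in members, against 506 and 741 and against 331 and 388. Their log2 differences were -1.92 ± 0.38 and -2.13 ± 0.52, with DESeq2 adjusted p of 0.227 and 0.353. Lama2, Hspg2 and Hmcn2 made up the 5. Col4a1, Col4a2 and Hmcn2 also stand on the list of interstitial genes described below, so their calls are not a separate result. Of all genes tested 4.80% were lower. Timp3, a matrix-bound protease inhibitor outside the list, was lower by both tools at 189 and 124 CPM against 916 and 1411 (-2.68 ± 0.32).

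The pan-fibroblast genes showed no common direction, with 4 of 14 higher, 3 lower and 7 not called (median 0.05). Summed, they stood at 16157 and 16466 CPM in members and at 14366 and 17694 in interstitial barcodes. Pdgfra and Dcn, which mark fibroblasts broadly, were not called (log2 -0.62 ± 0.36 and -0.50 ± 0.21). Cd34 (251 and 207 CPM against 60.2 and 52.9) and Scara5 (1194 and 869 against 319 and 335) were higher by edgeR alone. Abca8a, a lipid transporter, was lower by both tools at 1308 and 1076 CPM against 2367 and 2664 (-1.10 ± 0.19).

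**Figure D4:**
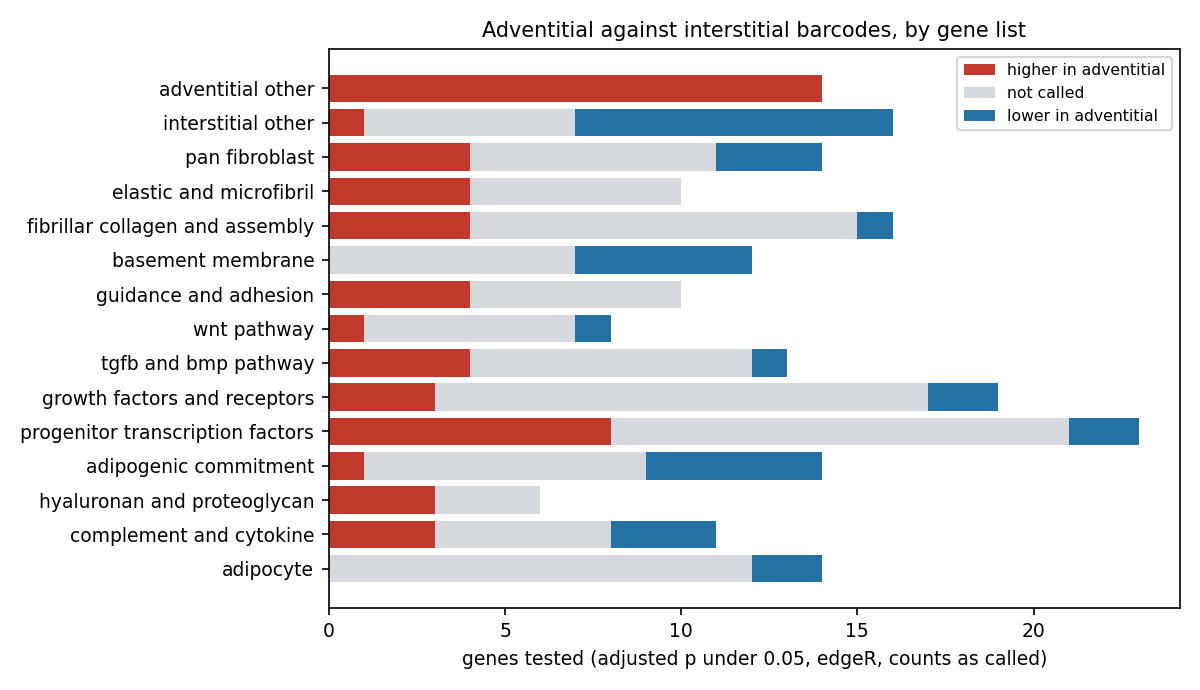
Number of tested genes of each list (x axis) that were higher in adventitial members (red), not called (grey) or lower (blue) by edgeR, for the lists with at least 5 tested genes. All 14 adventitial genes are red, and the basement membrane bar has 5 blue genes and 0 red.

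Of 10 adhesion and guidance genes tested, 4 were higher in members and 0 lower (median 1.53). Opcml, called by both tools, also stands on the adventitial list. The others were Sema3e, a relative of Sema3c (36 and 4 UMIs against 3 and 1, with 13 UMIs in a single TN nucleus), the Slit receptor Robo1 (893 and 1034 CPM against 247 and 423), and the Eph ligand Efna5 (930 and 869 against 211 and 282). Slit3, a ligand of Robo1, was not called (-0.04 ± 0.17). Outside the list, among the genes named by rank, Lsamp, of the same IgLON family as Opcml and located on chromosome 16 (39984361 to 42181679), had 1 and 0 UMIs in members against 100 and 45 (-5.95 ± 0.66). Mdga2, another membrane protein of the immunoglobulin superfamily, had 1 and 0 against 63 and 41 (-5.46 ± 0.74). Lsamp was read in 38 of 115 TN and 18 of 49 1cyc interstitial barcodes, and Mdga2 in 25 and 17. Each of the 2 genes was thus without a UMI in most interstitial barcodes. Lsamp and Mdga2 were lower by both tools, so 2 IgLON genes were called in opposite directions. Astn2 (2 and 0 UMIs against 50 and 19) and Sgip1 (1 and 0 against 46 and 24) were lower by edgeR alone.

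In the TGF-beta and BMP list 4 of 13 were higher and 1 lower (median 0.38). Fstl1, a secreted follistatin-like glycoprotein, was at 1006 and 1034 CPM against 181 and 141 (2.48 ± 0.30), called by both tools. Bmp6 was higher by edgeR alone (11 and 9 UMIs against 6 and 0, with 6 of the 9 in 1 nucleus), whereas Bmp5 was lower by edgeR alone (0 and 2 UMIs against 60 and 28, -4.30 ± 0.69). Wnt genes gave 1 of 8 higher, the secreted enhancer Rspo3 (11 and 6 UMIs against 3 and 1), and 1 lower, the receptor Ror1, both by edgeR alone. Of 19 growth factor genes 3 were higher and 2 lower by edgeR alone. Fgf2 (19 and 4 UMIs against 8 and 1), Pdgfd and Egfr were higher, and Pdgfrb (8 and 1 against 42 and 21) and Angpt1 lower.

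Of the receptors of interleukin-6 family cytokines, 2 were lower in members. Lifr had 6 and 2 UMIs against 83 and 33 (-2.82 ± 0.47) and Osmr 3 and 0 against 35 and 13, both by edgeR alone, while Il6st, their shared subunit, was not called. Among 11 complement and cytokine genes, 3 were higher and 3 lower by edgeR alone. The higher ones were the complement protein C3 (15 and 8 UMIs against 2 and 1), the alarmin Il33 (11 and 5 against 2 and 2) and the interleukin-36 receptor Il1rl2 (46 and 19 against 25 and 10). Il1r1 was the third lower gene. Cp, the copper-binding ferroxidase ceruloplasmin, had 13 and 1 UMIs against 87 and 31 and was lower by edgeR alone.

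Transcription factors known from progenitors were higher for 8 of 23 tested, lower for 2 and not called for 13 (median 0.16). Besides Creb5, which also stands on the adventitial list, Ebf2 and Tshz2 were higher by both tools. Ebf2, a factor known from brown preadipocytes, had 368 UMIs in 67 of 67 TN members and 90 in 24 of 25 1cyc members, at 4627 and 3723 CPM against 1578 and 1711 (1.29 ± 0.17, edgeR adjusted p = 1.11e-12). It stands on the list of interstitial genes, of which 16 were tested, 9 were lower and Ebf2 alone was higher (median -1.35). Genes could enter this count through the interstitial sums alone, so it is no support on its own. Summed, that list stood at 7846 and 7075 CPM in members and at 7674 and 7797 in interstitial barcodes. Ebf2 gave 368 of its 624 and 90 of its 171 UMIs in members. Prrx1, Zeb1, Foxp1 and Ebf1 were among those higher by edgeR alone. Tcf4 was lower by both tools (478 and 372 CPM against 1422 and 1817, -1.86 ± 0.24), and Nfib by edgeR alone.

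Genes of adipogenic commitment other than Ebf2 were lower or not called, with 5 of 14 lower by edgeR alone (median -0.49). Fabp4, a fatty acid carrier, had 12 and 1 UMIs against 109 and 15 (-2.26 ± 0.42), and the lipid droplet protein Plin2 5 and 2 against 51 and 25 (-2.39 ± 0.55). The lipases Lpl (9 and 4 UMIs against 55 and 29) and Lipe, and the carbonic anhydrase Car3 completed the 5. Fabp4 and Lpl also stand on the list of interstitial genes. Pparg, the master factor of fat cells, was not called at 792 and 786 CPM against 1096 and 1041 (-0.54 ± 0.23). Adipocyte genes as a list summed to 4729 and 4622 CPM in interstitial barcodes, above the 3131 and 3930 of members, and the part of adipocyte RNA in these differences was not tested. In the list of 20 adipocyte genes 2 of 14 tested were lower, Lpl and Lipe.

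Vascular genes gave 1 call upward. Tek, the angiopoietin receptor of endothelial cells, was higher in members by edgeR alone (440 and 662 CPM against 157 and 88.2, 1.80 ± 0.41) and was read in 24 TN and 11 1cyc members. Notch3 and Pdgfrb, which mark mural cells, were lower by edgeR alone. Cdh19, known from Schwann cells, had 0 UMIs in members against 36 and 10 and was also lower by edgeR alone. With a floor of 3 counts in place of 0, Cdh19 was 5.75-fold lower in TN and 1.42-fold lower in 1cyc. The 4 haemoglobin and red cell genes that edgeR called lower rested on the interstitial barcode named above and were not called by DESeq2.

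Against all other barcodes, most of them adipocyte nuclei, 449 of 10426 tested genes were higher in members (4.31%) and 602 lower (5.77%). Of the 1051 genes called (10.1%), DESeq2 also called 293 higher (2.81%) and 168 lower (1.61%). The median log2 difference was -0.56, and with library totals in place of TMM scaling it was -0.20 with 564 genes higher and 391 lower, which moves the higher share of calls from 42.7% to 59.1%. All 14 pan-fibroblast genes tested were higher, 13 by both tools, with a median of 3.88, and 13 of 17 fibrillar matrix genes were higher and 0 lower. Col3a1 stood at 1358 and 1283 CPM against 54.4 and 38.0 (4.43 ± 0.31), and Pdgfra at 339 and 165 against 13.2 and 8.99 (4.23 ± 0.59). Of the adipocyte genes 19 of 20 were lower, 13 by both tools, with Pparg at 792 and 786 CPM against 3659 and 4546 (-2.71 ± 0.25). Ebf2 was higher here too, at 994 and 1263 CPM in the other barcodes (1.52 ± 0.22).

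Members made up 2.72% of the TN barcodes under the mitochondrial limit (2.11 to 3.44) and 1.22% of the 1cyc ones (0.792 to 1.80). The depth of the 2 libraries differs in the same sense. With at least 500 UMIs per barcode the shares were 2.72% and 2.11% (1.34 to 3.15), and after thinning to 500 UMIs 1.86% (1.37 to 2.48) and 1.74% (1.05 to 2.71). Among adventitial and interstitial barcodes together, members were 36.8% in TN (29.8 to 44.3) and 33.8% in 1cyc (23.2 to 45.7). The counting intervals of the 2 libraries overlapped for the shares from 500 UMIs, the thinned shares and the balance of the 2 progenitor classes. The part of depth in the difference of the shares was not tested. The interstitial share was 4.66% in TN and 2.39% in 1cyc, but 4.66% and 3.94% from 500 UMIs per barcode and 2.27% and 2.11% after thinning.

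Within members, the 1cyc over TN ratio of CPM was computed for the 967 genes outside the rule with at least 20 UMIs over both sums, with no test. At least 2-fold higher in 1cyc were 52 genes (5.38%) and at least 2-fold lower 95 (9.82%), while 606 (62.7%) lay within 1.5-fold and the median log2 ratio was 0.01. The 95% interval lay above 1 for 41 genes and below 1 for 33. The 13 measured adventitial genes outside the rule had a median log2 ratio of 0.09, with 0 at 2-fold in either direction, and the whole list had a summed ratio of 1.10 (0.988 to 1.23).

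Flrt2, an adhesion protein that binds latrophilin and Unc5 receptors, had 46 UMIs in 25 TN members and 40 in 16 1cyc members. That is 578 and 1655 CPM, a ratio of 2.86 (1.83 to 4.47), and in interstitial barcodes it stood at 205 and 141 CPM with a ratio of 0.689 (0.276 to 1.52). Flrt2 was also higher in members than in interstitial barcodes by both tools (log2 2.11 ± 0.31). Rcan2, an inhibitor of calcineurin, stood at 402 and 1200 CPM in members (ratio 2.98, 1.74 to 5.09) and at 48.2 and 35.3 in interstitial barcodes (0.732, 0.0757 to 3.67). Its class difference was 3.63 ± 0.48 by both tools. The difference between the classes in these ratios was not tested. Genes here and below were named for extreme ratios in members, so a less extreme interstitial ratio is no result on its own.

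Plscr4, a phospholipid scramblase family member, stood at 163 and 579 CPM (ratio 3.54, 1.54 to 8.19), and Rbpj, the DNA-binding factor of the Notch pathway, at 201 and 621 (3.08, 1.42 to 6.66). Antxr2, an anthrax toxin receptor that binds matrix proteins, was at 968 and 1862 CPM (1.92, 1.30 to 2.81) from 77 and 45 UMIs. Cmip, Pcca, Tdrd3 and Heatr5a had 10 to 12 UMIs in each library and ratios of 3.29 to 3.62. Without the nucleus that held most of their UMIs, the intervals of Tdrd3 (0.944 to 7.74) and Heatr5a (0.960 to 6.67) included 1. These low counts leave each ratio wide.

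Among the genes with lower values in 1cyc, C7, a complement component, had 99 UMIs in 17 TN members and 13 in 6 1cyc members (1245 and 538 CPM, ratio 0.432, 0.222 to 0.773). In interstitial barcodes the ratio of C7 was 0.360 (0.138 to 0.790) and in the adipocyte reference 0.113 (0.0441 to 0.242). One TN nucleus held 33 of the 99, and without it the ratio was 0.632 (0.320 to 1.16). With members of at least 5 adventitial UMIs it was 0.879, and thinned to 500 UMIs 0.0848. C1qtnf7, a secreted relative of complement C1q, had 46 and 4 UMIs (0.286, 0.0748 to 0.784). Mitf, a transcription factor, had 39 UMIs in 25 TN members and 2 in 1cyc (0.169, 0.0197 to 0.652), while in interstitial barcodes its ratio was 1.27 (0.769 to 2.04). Phf14 had 21 UMIs in TN members and 0 in 1cyc. Hnrnpa2b1, Aff2, Zmynd11 and Pde1a had 25 to 29 UMIs in TN and 1 in 1cyc, and Maml3 and Pan3 had 32 and 2. With 24171 member UMIs in 1cyc, these genes were near the limit of detection there.

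**Figure D5:**
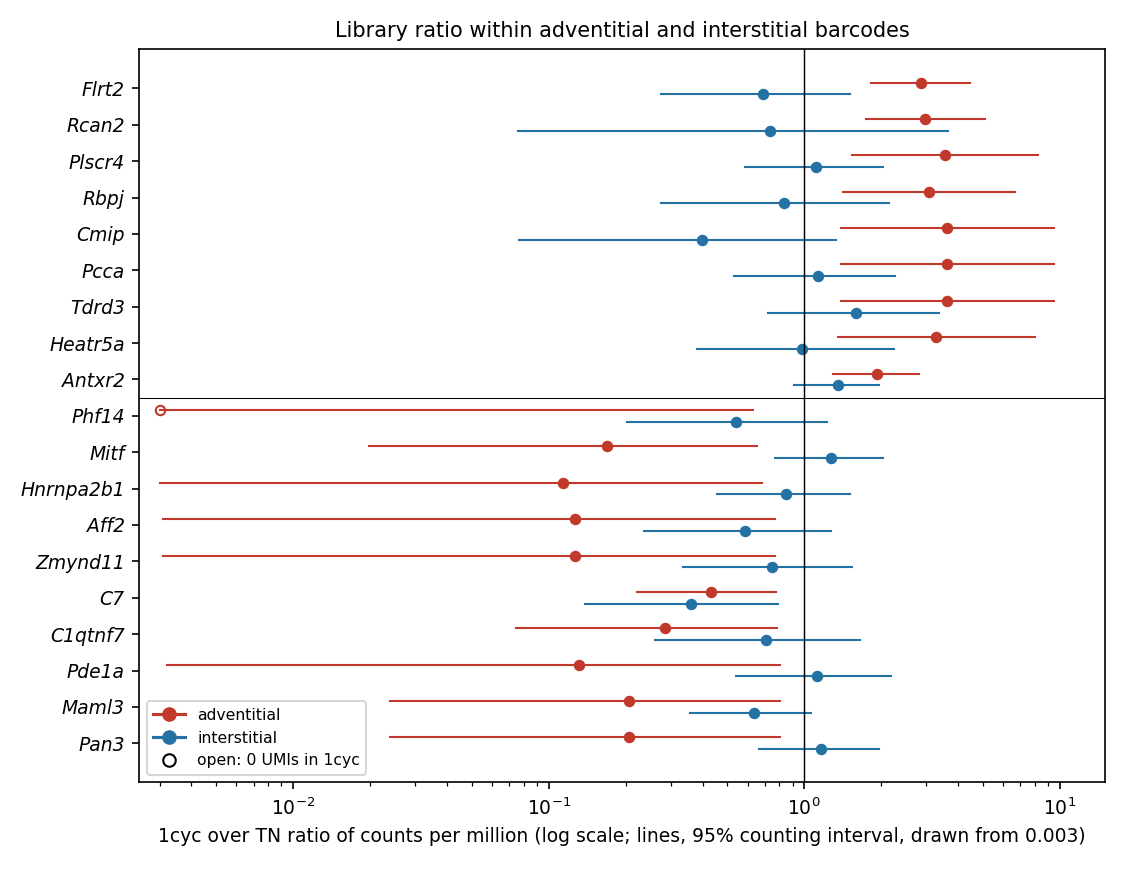
Ratio of 1cyc to TN CPM (x axis, logarithmic) for 9 of the 10 genes with the highest and the 10 with the lowest ratio bounds in adventitial members (red), beside the same ratio in interstitial barcodes (blue); lines are exact 95% counting intervals drawn from 0.003, and the vertical line is 1. Genes were chosen by their adventitial intervals, so that these exclude 1 follows from the choice. The interstitial interval, not used in the choice, includes 1 for every gene shown except C7.

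By list, 0 of 7 measured elastic fibre and microfibril genes and 0 of 4 basement membrane genes differed by 2-fold between the libraries in members. Over all 967 measured genes 5.38% were at least 2-fold higher in 1cyc and 9.82% lower. The counts in lists this small are thus a description only. Fibrillar matrix genes had a median log2 ratio of 0.16 over 13 genes, with Col14a1 the 1 gene at 2-fold (490 and 1034 CPM). Growth factor and receptor genes had a median of -0.34 over 10 genes and summed to 8927 and 7281 CPM (ratio 0.816, 0.688 to 0.963). The progenitor transcription factors had a median of 0.06 over 21 genes, and their sum was 30402 CPM in TN and 31318 in 1cyc. Pan-fibroblast genes had a median of -0.26 over 14 genes, at a summed ratio of 1.02 (0.908 to 1.14), and Pdgfra was the 1 gene at 2-fold (339 and 165 CPM, from 27 and 4 UMIs).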

How the data were processed

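As deposited, each library is a matrix of whole UMI counts for genes by barcodes, which the authors did not normalize. Cell Ranger 3 and mm10 are named in the submitters' processing notes. The matrices carry version 3.1.0, per the file headers, and barcodes had been filtered, per the design text. No source used here names the annotation or says if introns were included. Gene spans came from GENCODE M21 (mm10) and promoters from RefSeq (GRCm38.p6). No other per-sample columns were used.

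Classes were formed by the stated UMI rules in each library with Python 3.11.15, and Scrublet was run in scanpy 1.11.5. Counts were summed per class and library without mitochondrially encoded genes. Genes with at least 20 UMIs over the 4 sums were tested with edgeR 4.0.16 (TMM, quasi-likelihood, library as a term, Benjamini-Hochberg adjustment over all genes tested, rule genes left out of the counts), with DESeq2 1.42.0 as an alternative. Each SE was derived as the size of the log2 difference over the square root of the F statistic of the edgeR test. Only the edgeR fit was tried on simulated counts, at a single fixed spread. Ratios between libraries have exact conditional binomial intervals, shares Clopper-Pearson and levels Poisson intervals, and a floor of 3 counts per sum stands in for 0. Named class genes were the 12 highest and 12 lowest by the interval bound nearest 1, with the same direction in both libraries. Named library genes were the 10 highest and 10 lowest by that bound. Any gene of a list could also be named. Some genes these rules name are not reported here. Members, lists and tests were chosen with earlier results of these data known.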

Additional observations from a re-analysis of the deposited data

Results flagged for a closer look

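Over the mitochondrial limit of 20%, and so outside the comparisons, 4 TN barcodes otherwise met the rule for members, against 0 in 1cyc. They held 9878 CPM of the adventitial list (6392 to 14581), from 25 UMIs. They were noted because they carry the members' genes in data that no comparison used.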

How the results depend on the processing

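The share of members in TN was 1.99% with at least 5 adventitial UMIs, 1.95% with no UMI of the other class and 1.86% thinned, where the share of the 2 progenitor classes was 45.1%. In 1cyc it was 2.11% from 500 UMIs per barcode. Against interstitial barcodes, genes higher were 100 under a 5% mitochondrial limit, 3 thinned, 33 with DESeq2 and 119 with at least 50 UMIs per gene, and genes lower were 65, 0, 11 and 108. Of the 185 higher genes, 97 could be tested after thinning. Thinned, edgeR gave 72 higher and 53 lower genes at an unadjusted p under 0.05. Against all other barcodes, genes higher were 123 thinned and 294 with DESeq2, and genes lower 241 and 168, and 391 with library totals. The cause of the gap between edgeR and DESeq2 was not tested. Between libraries within members, genes at least 2-fold higher and lower were 19 and 43 under a 5% and 34 and 61 under a 10% mitochondrial limit, 30 and 54 with no UMI of the other class, 10 and 9 thinned, 216 and 295 from 10 UMIs and 6 and 8 from 50 UMIs per gene. With at least 5 adventitial UMIs 29 were higher. Every alternative that could be computed for the 24 genes named by rank in the class comparison kept the direction. DESeq2 lost the call of 8 of them and thinning that of 14. With either library left out no test was possible. The direction held for the 22 and 14 genes with UMIs in both classes, but the choice of genes had fixed this. It required the same direction in each library. Leaving out the interstitial barcodes that mix classes and the nucleus with most UMIs of a gene were chosen after seeing the data. No paired analysis was possible because each condition was 1 library, and the library term in the class comparison takes its place. Precision was limited by 24171 member UMIs in 1cyc.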
